A study of Mus musculus with 29 samples.

Results

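The change in RNA that accompanied stroke in all of 3 mouse strains was measured by comparing 8 stroked with 11 non-stroked cortex samples in 1 model that held strain constant. These 19 of the 29 samples of the series were chosen by their labels: the prefix Imm2, the genotype WT, RAG or NSG, and the treatment Stroke or Ctrl. The WT samples, 4 Ctrl and 2 Stroke, came from C57BL/6J mice. The RAG samples, 3 Ctrl and 3 Stroke, came from Rag2-/- mice, which make no mature T or B lymphocytes. The NSG samples, 4 Ctrl and 3 Stroke, came from NOD scid gamma mice, which also lack natural killer cells. Mice of both sexes were used at an age of 3 months. A photothrombotic stroke, in which light activates an injected dye that clots the vessels beneath it, had been set in the right sensorimotor cortex, and the tissue was taken at 21 days. None of these 19 samples was from a mouse given tacrolimus. NSG mice stand on another genetic background than C57BL/6J, so immune defect and background cannot be told apart. The Ctrl samples are called non-stroked here, because the study describes them both as the uninjured side of the brain and as tissue of naive mice.

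Weeks after an ischaemic injury, microglia and macrophages clear the dead core while astrocytes and fibroblasts close it off with a scar, and neurons in and near the lesion are lost or alter their synapses and channels. The adult brain makes its own cholesterol, since little of it crosses from the blood. The transcription factor SREBP2, encoded by Srebf2, drives the genes of that synthesis.

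Between 32507506 and 41093219 reads were counted per sample, and 17074 genes had enough counts to be tested. Markers of choroid plexus, the tissue that makes cerebrospinal fluid, summed to at least 299 CPM (a gene's reads scaled to library size) in 7 samples, of which 5 were Ctrl and 2 Stroke, and to at most 34.5 CPM in the other 12. Striatal markers ranged from 178 to 2401 CPM over the samples. The Y-linked gene Ddx3y had at most 2 counts in 2 Ctrl and 3 Stroke samples, so the sexes were spread unevenly. In NSG mice it was present in all 4 Ctrl and in 1 of the 3 Stroke samples, so sex ran in part with stroke there. B230118H07Rik, which adjoins Rag2 in the genome, had at most 4 counts in each of the 6 RAG samples and at least 504 in each of the others, while Rag2 itself had 0 counts throughout. The labels do not say that the samples of a group are separate animals, so the p-values measure only the spread between these samples. The methods name fewer NSG mice for sequencing than there are NSG samples here, so some may share an animal. Sharing within a treatment would make p-values that rest on those samples too small. Sharing between Ctrl and Stroke, which the Ddx3y counts allow in NSG only for Stroke replicate 3, would be a pairing that the fit ignores.

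Many genes were slightly lower after stroke, and the higher genes had moved further. With edgeR's quasi-likelihood test at an adjusted p under 0.05, 2654 genes were lower after stroke (15.5% of those tested) and 3340 were higher (19.6%). Scaled to pan-neuronal genes instead of all genes, 280 were lower and 8607 higher, and without the 7 samples rich in choroid plexus markers 2038 were lower and 1995 higher. The lower genes had a median log2 fold change of -0.28, and the middle 90% of them lay between -0.65 and -0.14. The median of the higher genes was 0.56. Lower genes made up 44.3% of all calls but 2.77% of the calls with a log2 fold change beyond 1 in size, of which 26 were lower (0.152%) and 913 higher (5.35%). The 26 included Npas4, which encodes a neuronal activity-induced transcription factor, and Wnt2b, which encodes a Wnt ligand. They became 9 when a mean level of 1 CPM was required, 10 with pan-neuronal scaling, 44 when NSG Stroke replicate 3 was left out, 46 with no filter and 48 without the 7 samples rich in choroid plexus markers. By sign alone, 97.7% of the lower and 98.2% of the higher genes moved in that direction in each of WT, RAG and NSG, which the choice of genes by the common effect in part fixes.

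**Figure D1:**
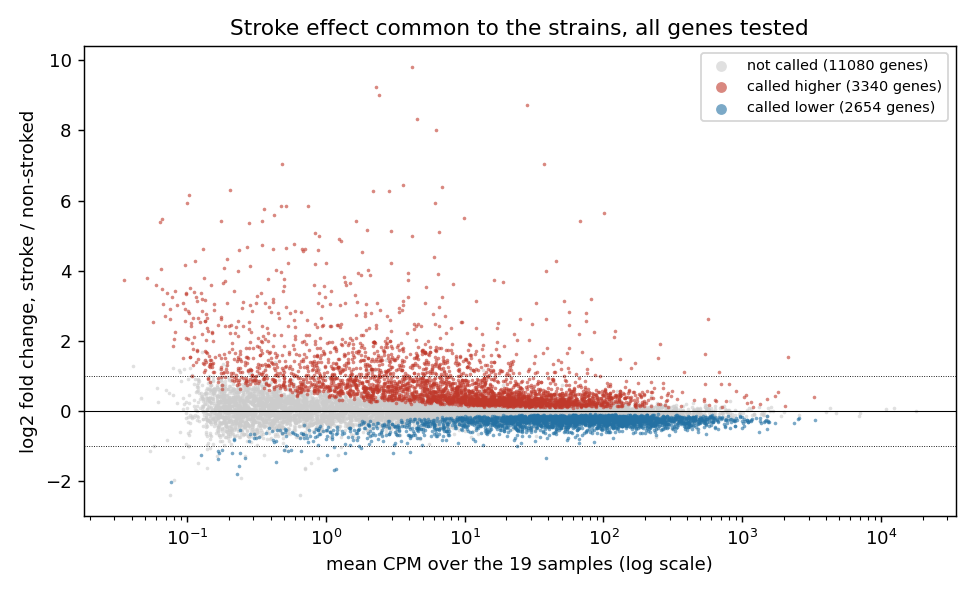
The log2 fold change of stroke over non-stroked samples, common to the 3 strains, is plotted for each gene tested against its mean CPM over the 19 samples on a log axis, with called genes coloured by direction and dotted lines at -1 and 1. The 2654 lower genes form a dense band just below 0 and few pass -1, whereas the 3340 higher genes spread up to a log2 fold change of 9.80.

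Of the cholesterol synthesis genes, 20 of 25 were lower, beside 15.5% of all genes tested, and 0 were higher, beside 19.6%. Their median log2 fold change was -0.36, beside 0.01 over all genes tested. The median was -0.38 in WT, -0.46 in RAG and -0.30 in NSG mice. Sqle encodes squalene epoxidase, the first oxygen-dependent step of sterol synthesis (chr15:59315077-59331192, GRCm38). Its levels were 49.7, 49.7, 49.5 and 52.4 CPM in WT Ctrl against 27.2 and 36.6 CPM in WT Stroke samples. RAG mice had 50.4, 55.1 and 47.1 CPM in Ctrl against 30.8, 31.3 and 36.3 CPM in Stroke samples. NSG mice had 50.5, 51.1, 55.0 and 48.3 CPM in Ctrl against 34.8, 33.2 and 30.9 CPM in Stroke samples. The levels of Sqle did not overlap between treatments, and the strains sat at the same height before and after stroke. The common log2 fold change was -0.64 (SE 0.056, edgeR adjusted p = 3.13e-08). The strain estimates were -0.66, -0.63 and -0.64, and NSG differed from WT by 0.02 with a 95% interval of -0.28 to 0.32.

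Hmgcs1, which encodes the HMG-CoA synthase at the head of the pathway (chr13:119690379-119708260), ranged from 217 to 272 CPM in Ctrl and from 142 to 194 CPM in Stroke samples. Here too the treatments did not overlap, and stroke lowered it by 0.61 on the log2 scale (edgeR adjusted p = 7.87e-08). Cyp51, which encodes a sterol demethylase, fell by 0.46 on that scale (edgeR adjusted p = 1.12e-05) and Srebf2 itself by 0.42 (edgeR adjusted p = 4.01e-06). Insig1, which holds the SREBP complex in the endoplasmic reticulum, fell by 0.42. Stard4, which encodes a sterol carrier, was at 21.4, 23.5 and 27.7 CPM in the lowest, median and highest Ctrl sample and at 12.4, 14.05 and 18.98 CPM in the Stroke samples. Every Stroke sample lay below every Ctrl sample, in all strains together, and the log2 fold change was -0.71 (SE 0.0745, edgeR adjusted p = 4.25e-07).

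The 5 members not called included Mvk at -0.16, Tm7sf2 at -0.01, Pmvk at 0.08 and Ebp at 0.11 on the log2 scale. All 20 called members were equal in the strains by the equivalence test described further on, as were 86.5% of all genes called lower. In each strain on its own 10 of them were called lower, beside 0.58% of all genes. When libraries were scaled to the pan-neuronal genes instead of all genes, 10 of the 25 were still lower and 3 were higher. Without the 7 samples rich in choroid plexus markers, 17 were lower and 0 higher.

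**Figure D2:**
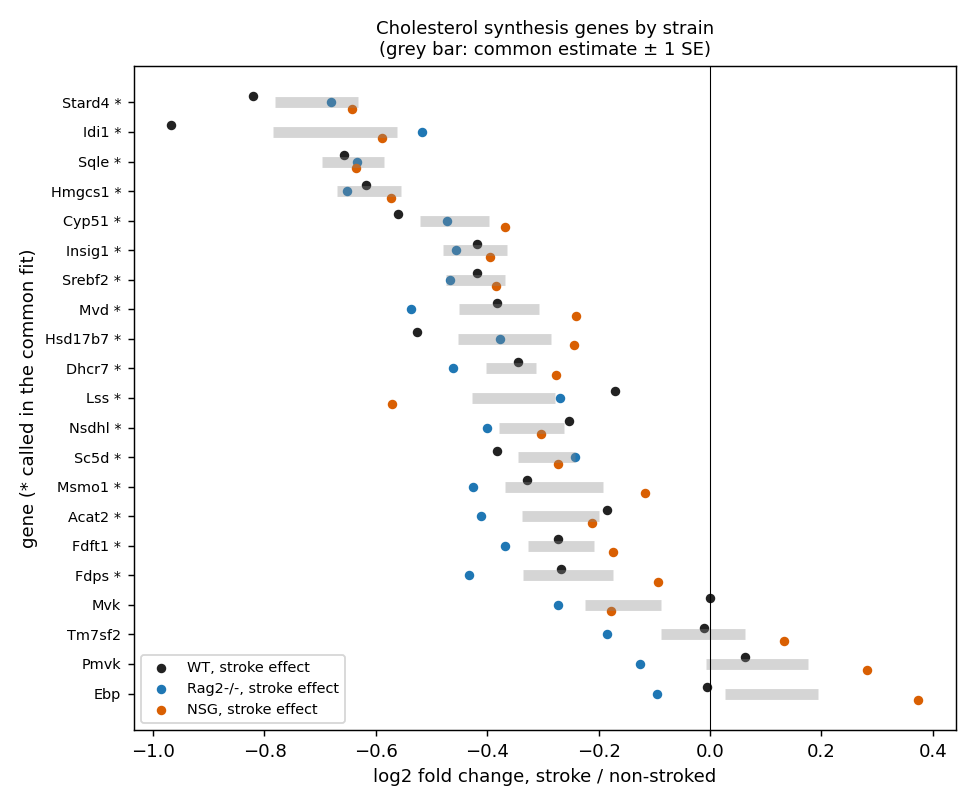
The log2 fold change of stroke over non-stroked samples is shown for 21 of the 25 cholesterol synthesis genes, with 1 point for each strain and a grey bar for the common effect with 1 SE to either side; an asterisk marks a called gene and Rag2-/- stands for RAG. The points of all strains lie below 0 for the 17 called genes shown, whose common effects run from -0.71 for Stard4 to -0.25 for Fdps.

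Promoters of these genes are shown because the genes fell together. RefSeq (GRCm38.p6) gave a promoter, 250 bases before to 50 after a start, for 17 of the 25 and for 13 of the 20 called lower. A gene counted as holding a motif when any of its promoters held the letters on either strand. The SP1 box GGGCGG was in 16 of the 17, or 94.1%, and in 13 of the 13 called lower. It was in 64.9% of the 12244 tested genes with a promoter, in 74.7% of the genes called lower and equal in the strains and in 70.4% of those called higher and equal. The sterol element letters TCACNCCAC, a motif chosen after the values were seen, were in the promoter of 1 of the 17, Hmgcs1, 137 bases before the start, and in 1.45% of tested genes with a promoter. These are matches of letters and not shown to be bound. The 250 bases before the RefSeq start of Hmgcs1, Cyp51 and Insig1, which can differ from the GENCODE start, follow, 5′ to 3′ on the gene's strand, with capitals on GGGCGG or its reverse complement CCGCCC.
Hmgcs1, chr13:119690101-119690350, plus strand: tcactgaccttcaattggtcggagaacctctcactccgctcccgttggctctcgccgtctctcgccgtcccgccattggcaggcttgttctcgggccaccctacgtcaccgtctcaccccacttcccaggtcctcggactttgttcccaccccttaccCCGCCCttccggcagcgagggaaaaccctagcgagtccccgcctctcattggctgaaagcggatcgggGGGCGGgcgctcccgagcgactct
Cyp51, chr5:4104698-4104947, minus strand: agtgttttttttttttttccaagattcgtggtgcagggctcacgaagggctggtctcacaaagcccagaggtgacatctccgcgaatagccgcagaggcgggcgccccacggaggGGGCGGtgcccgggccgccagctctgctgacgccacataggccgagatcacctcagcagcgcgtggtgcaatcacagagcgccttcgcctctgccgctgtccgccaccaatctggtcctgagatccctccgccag
Insig1, chr5:28071162-28071411, plus strand: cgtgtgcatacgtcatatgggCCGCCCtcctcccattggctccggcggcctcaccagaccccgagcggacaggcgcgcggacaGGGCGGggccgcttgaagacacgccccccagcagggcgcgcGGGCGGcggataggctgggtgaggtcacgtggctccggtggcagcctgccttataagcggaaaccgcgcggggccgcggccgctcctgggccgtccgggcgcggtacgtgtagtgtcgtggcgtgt

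Genes that fell in each strain on its own numbered 99 (0.58%), and 816 rose in each (4.78%). Within the strains 390 genes were lower in WT (2.28%), 383 in RAG (2.24%) and 1621 in NSG (9.49%), while 1136 were higher in WT (6.65%), 1405 in RAG (8.23%) and 2245 in NSG (13.1%). The strains differ in their number of samples, and these counts were not compared. Stroke samples lay below all Ctrl samples of their own strain, in each strain, for 587 genes (3.44%), and above them for 1308 (7.66%). The 99 had a median common log2 fold change of -0.45, and medians of -0.50 in WT, -0.48 in RAG and -0.40 in NSG. Of them 14 were entries of the protocadherin alpha cluster, whose transcripts share their last exons, so that their counts are uncertain and not independent. Of the remaining 85, 10 belonged to cholesterol synthesis and 6 to voltage-gated channels, and 79 of the 99 belonged to no list examined.

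Slitrk1, which encodes a synaptic adhesion protein of neurons (chr14:108908800-108914158), ranged from 93.2 to 138 CPM in Ctrl and from 69.3 to 91.1 CPM in Stroke samples. The treatments did not overlap, and the log2 fold change was -0.61 (SE 0.0614, edgeR adjusted p = 2.23e-07). Ugcg, which encodes the enzyme that makes glucosylceramide (chr4:59189257-59222833), ranged from 87.1 to 99.8 CPM in Ctrl and from 69.1 to 77.4 CPM in Stroke samples. Its levels varied little within either treatment and did not overlap between them. The log2 fold change was -0.38 (SE 0.0389, edgeR adjusted p = 3.35e-07), with -0.37 in WT, -0.44 in RAG and -0.33 in NSG. Among the lower genes found equal in the strains, the largest falls included Hecw2 at -0.88, Nwd2 at -0.83, Atad2 at -0.80 and Cdh6, a cadherin, at -0.78, none of which overlapped between treatments.

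**Figure D3:**
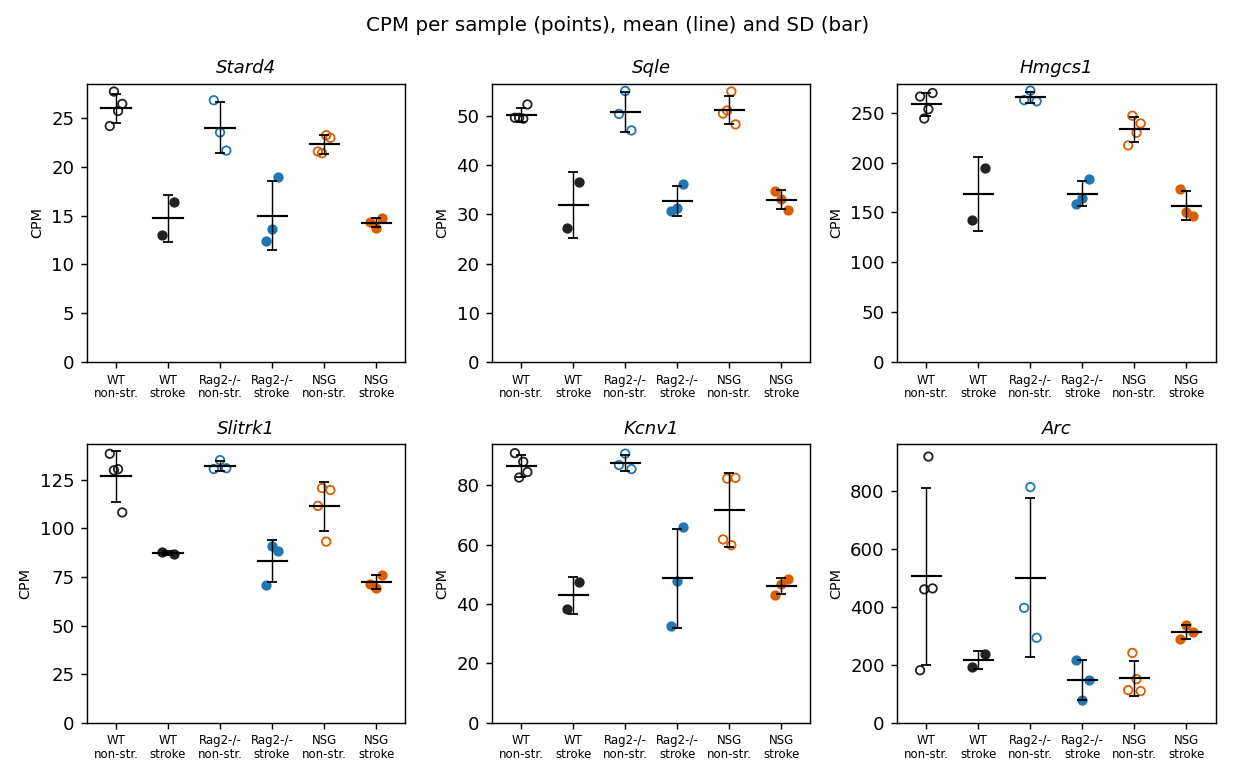
Levels in CPM are plotted for each of the 19 samples, by strain and treatment, for Stard4, Sqle, Hmgcs1, Slitrk1, Kcnv1 and Arc, with a line at each group mean and a bar of 1 SD to either side; Rag2-/- stands for RAG. The cholesterol genes and Slitrk1 separate Ctrl from Stroke in every strain, Kcnv1 does so with a wider spread, and Arc goes down in WT and RAG but up in NSG samples.

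Many genes of neuronal signalling fell, beside 15.5% of all genes tested, and the median of each list below was under 0 in each strain. Of voltage-gated ion channels, 38 of 55 were lower and 0 higher, with a median log2 fold change of -0.35. Lower were also 14 of 19 genes of GABA signalling (median -0.29), 17 of 25 of transmitter release and transport (-0.26), 18 of 31 glutamate receptor and postsynaptic genes (-0.25), 12 of 30 cortical layer markers (-0.15), 10 of 20 pan-neuronal genes (-0.18) and 5 of 26 neuropeptide and interneuron genes (-0.13). The share of neuropeptide and interneuron genes was near that of all genes. Their median in WT was -0.0045, beside 0.0089 over all genes, and it was -0.13 in RAG and -0.21 in NSG. None of these lists had a member called higher. Without the samples rich in choroid plexus markers the median was -0.34 for the layer markers, -0.28 for pan-neuronal genes and -0.23 for neuropeptide and interneuron genes. In bulk tissue, fewer neurons and less RNA per neuron cannot be told apart. Summed neuronal markers were 5570, 7006 and 7488 CPM in the lowest, median and highest Ctrl sample and 4941, 5846 and 6383 CPM in Stroke samples, and 5 of the 6 markers were lower.

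Kcnv1, which encodes a silent potassium channel subunit that modifies other channels (chr15:45106284-45114920), was at 82.6 to 90.8 CPM in WT Ctrl and 38.4 and 47.3 CPM in WT Stroke samples. RAG samples had 85.4 to 90.6 CPM in Ctrl and 32.4 to 65.8 CPM in Stroke, and NSG samples 59.8 to 82.4 CPM in Ctrl and 43.1 to 48.3 CPM in Stroke. Stroke samples were lower within each strain, with the RAG Stroke samples the most scattered. The log2 fold change was -0.81 (SE 0.106, edgeR adjusted p = 6.38e-06).

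Kcnt2, a sodium-activated potassium channel, fell by 0.61 on the log2 scale (edgeR adjusted p = 4.04e-06), and Kcnc2, a channel of fast-spiking neurons, by 0.43. Scn1a, the sodium channel of many inhibitory neurons, fell by 0.62. Rims1, a scaffold of the presynaptic active zone, was at 298 to 425 CPM in Ctrl and 179 to 296 CPM in Stroke samples, without overlap (log2 fold change -0.58, edgeR adjusted p = 1.1e-05). Gabra4, an alpha subunit of GABA-A receptors, was at 86.7 to 112 CPM in Ctrl and 71.04 to 86.1 CPM in Stroke samples, also without overlap, and fell by 0.28. Elavl4, which encodes a neuronal RNA-binding protein, fell by 0.46. Rbfox3, whose product is the NeuN antigen, fell by 0.36 (edgeR adjusted p = 0.000458), while the neurofilament gene Nefl was not called (-0.14, edgeR adjusted p = 0.116). Of nuclear oxidative phosphorylation genes, which neurons use heavily, 1 of 29 was lower and 1 higher (median 0.07). These were smaller shares than the 15.5% and 19.6% of all genes.

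Scaled to the pan-neuronal genes, the median log2 fold change of all genes moved to 0.24 and 280 genes were lower, each of them among the 2654. Channels then had 14 lower and 3 higher members, transmitter release 2 and 2, GABA signalling 3 and 1, glutamate genes 2 and 5, pan-neuronal genes 2 and 2, layer markers 3 and 7, neuropeptide and interneuron genes 0 and 3, and immediate early genes 1 and 5. With 8607 of the 17074 genes higher on this scale, 14 of 28 cell cycle genes were higher, a share near that of all genes. Higher were also 11 of 18 oligodendrocyte precursor, 16 of 22 myelin and 26 of 29 oxidative phosphorylation genes. Of endothelial genes 4 were lower and 6 higher. Gabra4 and Rbfox3 lost their calls (edgeR adjusted p = 0.538 and 0.0638). Rbfox3 is among the pan-neuronal genes that set this scale, so its shift and that of their list are in part fixed. Of the 99 genes lower in each strain, 80 were lower on this scale too.

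**Figure D4:**
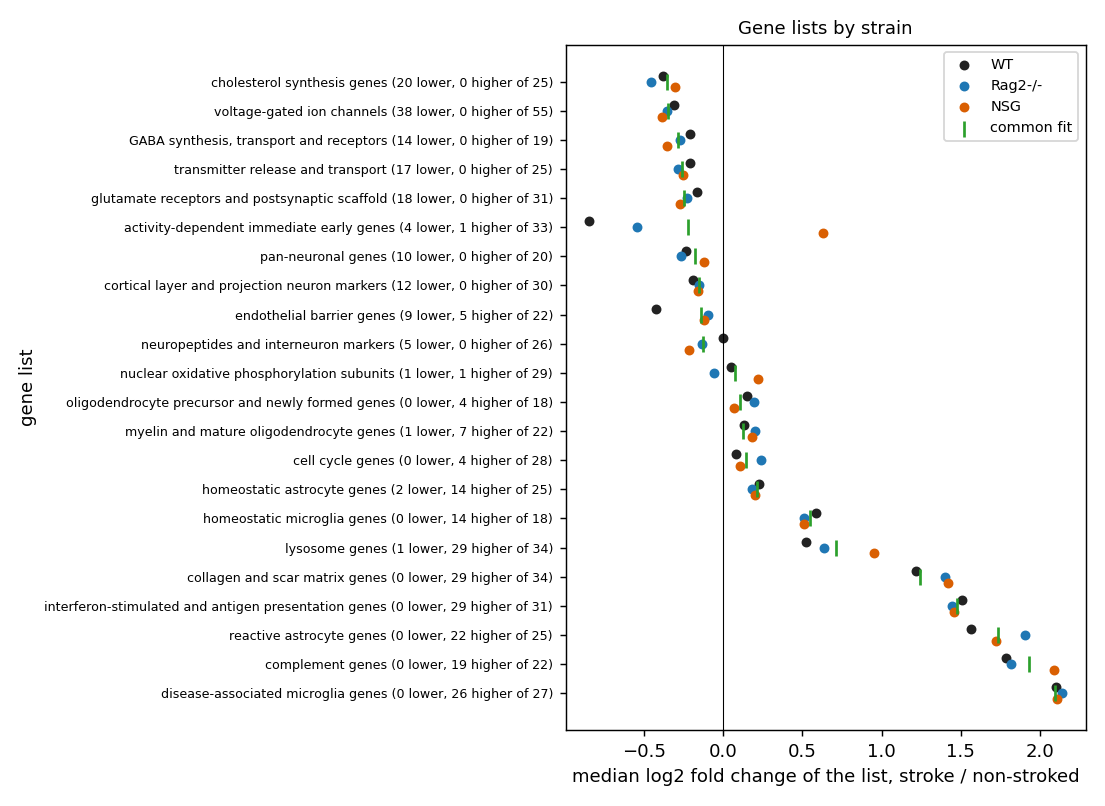
The median log2 fold change of stroke over non-stroked samples is shown for each gene list, with 1 point for each strain and a green mark for the common effect; Rag2-/- stands for RAG. The neuronal lists and cholesterol synthesis lie between -0.13 and -0.36 in the common effect, the glial, matrix and immune lists lie above 0, and the immediate early genes are spread the widest, from -0.85 in WT to 0.63 in NSG.

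Activity-dependent immediate early genes, which neurons switch on within minutes of firing, had 4 of 33 members lower and 1 higher, smaller shares than the 15.5% and 19.6% of all genes, and the widest gap between strains of the lists examined. Their median log2 fold change was -0.85 in WT, -0.55 in RAG and 0.63 in NSG, where sex also ran in part with stroke and its part within NSG was not tested. Npas4 (chr19:4984355-4990316) had 37.2, 69.2, 79.2 and 35.1 CPM in WT Ctrl and 14.8 and 19.02 CPM in WT Stroke samples. RAG mice had 34.3, 90.3 and 72.4 CPM in Ctrl and 13.8, 16.8 and 25.3 CPM in Stroke samples. NSG mice had 27.0, 55.9, 48.1 and 22.9 CPM in Ctrl and 34.1, 22.4 and 16.8 CPM in Stroke samples. WT and RAG samples did not overlap between treatments, while NSG samples did. The common log2 fold change was -1.33 (SE 0.265, edgeR adjusted p = 0.000622), with -1.71, -1.82 and -0.66 in WT, RAG and NSG, and the test of a strain difference gave an edgeR adjusted p of 0.807.

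Arc, whose product acts at active synapses, changed by -1.23 on the log2 scale in the WT strain, by -1.77 in RAG (edgeR adjusted p = 0.0252) and by 1.03 in NSG (edgeR adjusted p = 0.0959). WT Ctrl samples ran from 181 to 919 CPM, RAG Ctrl from 293 to 813 CPM and NSG Ctrl from 109 to 241 CPM. Stroke samples of the same strains ran from 193 to 237, from 78.3 to 217 and from 290 to 337 CPM. NSG Stroke samples thus lay above all NSG Ctrl samples and RAG Stroke samples below all RAG Ctrl samples, while WT samples overlapped. The strain difference had an edgeR p of 0.000977 before and 0.505 after adjustment over all genes, so it did not pass. The common effect of Arc was not called (edgeR adjusted p = 0.353, and 0.126 with Ddx3y level as a covariate), and Egr3 and Inhba, of the same list, were lower at -0.52 and -0.46 on the log2 scale. Both lost their call with pan-neuronal scaling (edgeR adjusted p = 0.127 and 0.245). The list had 7 members lower without the samples rich in choroid plexus markers. Inhba also lost its call without WT Stroke replicate 3 (edgeR adjusted p = 0.0591).

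The promoter of Npas4 is shown because it has 2 copies of the core cAMP response letters TGACG. Those letters, on either strand, were in the promoters of 18 of 25 immediate early genes with one, or 72%, beside 32.6% of tested genes and 35.9% of the genes lower and equal in the strains. The full palindrome TGACGTCA, which contains the core, was in 3 of 25 (12%) beside 3.26%, and TATAAA in 5 of 25 (20%) beside 9.6%. The match is one of letters, as above. Capitals mark TGACG or its reverse complement CGTCA in the 250 bases before the RefSeq start, which lies inside the gene as GENCODE M21 gives it, so by that annotation the stretch is part of the gene.
Npas4, chr19:4989972-4990221, minus strand: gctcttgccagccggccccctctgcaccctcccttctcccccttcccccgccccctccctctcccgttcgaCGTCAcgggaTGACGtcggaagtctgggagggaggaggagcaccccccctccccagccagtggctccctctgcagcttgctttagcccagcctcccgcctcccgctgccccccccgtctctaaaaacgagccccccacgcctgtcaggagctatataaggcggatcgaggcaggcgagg

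Of endothelial genes, 9 of 22 were lower, beside 15.5% of all genes, and 5 were higher, a share near the 19.6% of all genes (median -0.14). Without the samples rich in choroid plexus markers, the median was -0.23. The lower ones included the growth factor receptors Flt1 and Kdr, at -0.78 and -0.85 on the log2 scale, and Cldn5, a tight junction protein, at -0.58. Flt1 ranged from 45.3 to 82.1 CPM in Ctrl and from 26.5 to 59.6 CPM in Stroke samples, which overlapped, and had -1.32 in WT, -0.61 in RAG and -0.54 in NSG. Higher were Mfsd2a, a lipid transporter of the blood-brain barrier, at 0.58 (edgeR adjusted p = 2.36e-06), Ly6c1 at 0.54 and the glucose transporter Slc2a1 at 0.37. The summed endothelial markers were 91.3 to 149 CPM in Ctrl and 64.0 to 119 CPM in Stroke samples, and 2 of the 4 were lower.

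Genes of microglia, reactive astrocytes, complement and scar rose together. Of disease-associated microglia genes 26 of 27 were higher (median 2.10), of complement genes 19 of 22 (1.93), of reactive astrocyte genes 22 of 25 (1.73), of interferon and antigen presentation genes 29 of 31 (1.48), of collagen and scar genes 29 of 34 (1.25) and of lysosome genes 29 of 34 (0.71). Homeostatic microglia genes had 14 of 18 higher (0.55) and homeostatic astrocyte genes 14 of 25 higher and 2 lower (0.21). Of cell cycle genes, 4 of 28 were higher and 0 lower, a smaller share than the 19.6% of all genes, and Pcna was at 14.3 to 25.1 CPM in Ctrl and 14.3 to 25.4 CPM in Stroke samples. Myelin genes had 7 of 22 higher and 1 lower (0.12). Without the samples rich in choroid plexus markers, the median was 0.16 for homeostatic astrocyte genes and -0.02 for myelin genes. Summed markers moved alongside: astrocyte markers went from 976 to 1310 CPM in Ctrl to 1980 to 3210 CPM in Stroke samples, microglia markers from 140 to 217 to 219 to 311 CPM, and fibroblast and mural markers from 49.9 to 106 to 126 to 662 CPM. The value of 662 came from NSG Stroke replicate 2 alone, and the other Stroke samples had at most 229 CPM.

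Trem2, a lipid-sensing receptor of microglia (chr17:48346401-48354147), showed the same rise in each strain. WT samples went from 7.30 to 9.09 CPM in Ctrl to 36.1 CPM in both Stroke samples, RAG samples from 9.81 to 11.1 CPM to 35.7 to 52.1 CPM, and NSG samples from 10.8 to 13.004 CPM to 37.7 to 58.5 CPM. The treatments were far apart in every strain. The common log2 fold change was 2.02 (SE 0.0835, edgeR adjusted p = 2.48e-12), with 2.10, 2.04 and 1.94 in WT, RAG and NSG, and NSG differed from WT by -0.17 (95% interval -0.62 to 0.28). C1qa, C1qb and C1qc, the chains of C1q, which starts the classical complement pathway, rose by 2.29, 2.24 and 2.21 on the log2 scale and were equal in the strains. Apod, a lipid-carrying lipocalin, rose by 1.91 and ranged from 105 to 132 CPM in Ctrl and from 361 to 598 CPM in Stroke samples.

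Other rises did not pass the equivalence test. Gfap, the filament of reactive astrocytes, rose by 2.62 (SE 0.158, edgeR adjusted p = 2.32e-10), with 2.55 in WT, 3.06 in RAG and 2.29 in NSG (equivalence adjusted p = 0.315). Lcn2, an iron-binding lipocalin, had at most 0.299 CPM in Ctrl and 20.2 to 212 CPM in Stroke samples. Genes almost absent without stroke were Atp6v0d2, a proton pump subunit (at most 0.0271 CPM in Ctrl and 4.55 to 28.3 CPM in Stroke samples), Cd5l, a macrophage protein (at most 0.0272 against 0.68 to 13.5 CPM), and the matrix protease Mmp3 (at most 0.0293 against 0.895 to 19.4 CPM). NSG Stroke replicate 2 alone gave the highest values of Lcn2, Atp6v0d2 and Mmp3, and the other Stroke samples had at most 77.2, 9.56 and 7.05 CPM of these genes. Smaller and equal were the rises of Glul, the glutamine synthetase of astrocytes, at 0.41 and of Gjb6, an astrocyte connexin, at 0.79.

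Equality in the strains was tested directly, by requiring each of the 3 pairwise differences between strain effects to lie within 1 on the log2 scale. This held for 11438 genes (67%) at an adjusted p under 0.05, for 2297 of the 2654 lower genes (86.5%) and for 1989 of the 3340 higher genes (59.6%). With pan-neuronal scaling, 194 lower and 6160 higher genes were equal. Without the 7 samples rich in choroid plexus markers, replicate 4 alone remained of NSG Ctrl, so equality could not be judged there. The margin of 1 exceeds most of the falls. The median of mean levels was also higher in lower genes (61.3 CPM) than in higher genes (8.68 CPM). The part of size or level in passing was not tested. None of the 26 genes lower by over 1 passed at the margin of 1, whereas 150 of the 913 higher by over 1 did. At a margin of 0.5, 1566 genes passed, of which 410 were lower and 197 higher. Sqle, Hmgcs1 and Ugcg passed at 0.5 with adjusted p of 0.0394, 0.0470 and 0.0252. Hfe2, which encodes an iron regulator, did not pass (adjusted p = 0.166) at log2 fold changes of -1.64, -1.66 and -1.65 in the strains, with levels of 0.434 to 2.61 CPM in Ctrl and 0.17 to 0.782 CPM in Stroke samples.

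No gene passed the test of a difference between the strains (0 of 17074, or 0%). In edgeR the smallest adjusted p was 0.180, for the collagen gene Col26a1, and 1061 genes (6.21%) had an unadjusted p under 0.05. The limma voom method also called 0. Leaving out 1 sample at a time gave 0 to 13 genes, with 13 when NSG Stroke replicate 3 was left out. Il2rg, the cytokine receptor chain that NSG mice lack in working form, rose by 1.81 in WT and 1.79 in RAG on the log2 scale and had 0.05 in NSG (edgeR adjusted p of the difference = 0.263).

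The direction of the effect ran with exonic length, counted over all annotated exons of a gene. Exonic length, from the GENCODE M21 annotation, had a median of 6.5 kb in lower genes, 3.31 kb in higher genes and 4.12 kb in all genes tested. Among the shortest 10% of genes, up to 1.62 kb, 2.7% were lower and 27.7% higher. Among the longest 10%, from 9.54 kb, 36.6% were lower and 6.03% higher. The median log2 fold change was 0.17 in the shortest and -0.15 in the longest of these sets. The same medians were 0.29 and -0.25 for NSG, 0.17 and -0.17 for WT, and 0.07 and -0.04 for RAG mice. Channels had a median length of 7.14 kb, cholesterol genes 4.4 kb and oxidative phosphorylation genes 2.18 kb.

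With a smooth trend over length removed from each sample, an alternative added after the values were seen, 2037 of the 2654 lower and 2763 of the 3340 higher genes kept their call, and 2795 of the 17074 genes were lower and 3151 higher. By count, 20 of the 25 cholesterol synthesis genes were then lower and 0 higher, at a median of -0.36. Lower were also 36 of 55 channels, 13 of 19 genes of GABA signalling, 18 of 25 of transmitter release, 12 of 31 glutamate genes (median -0.12) and 8 of 26 neuropeptide and interneuron genes. Of 29 oxidative phosphorylation genes 7 were lower and 0 higher, 7 of 18 oligodendrocyte precursor genes were higher, the median of myelin genes was 0.04, and Col26a1 passed the test of a strain difference (edgeR adjusted p = 0.0238). The part of length in the other falls was not tested.

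**Figure D5:**
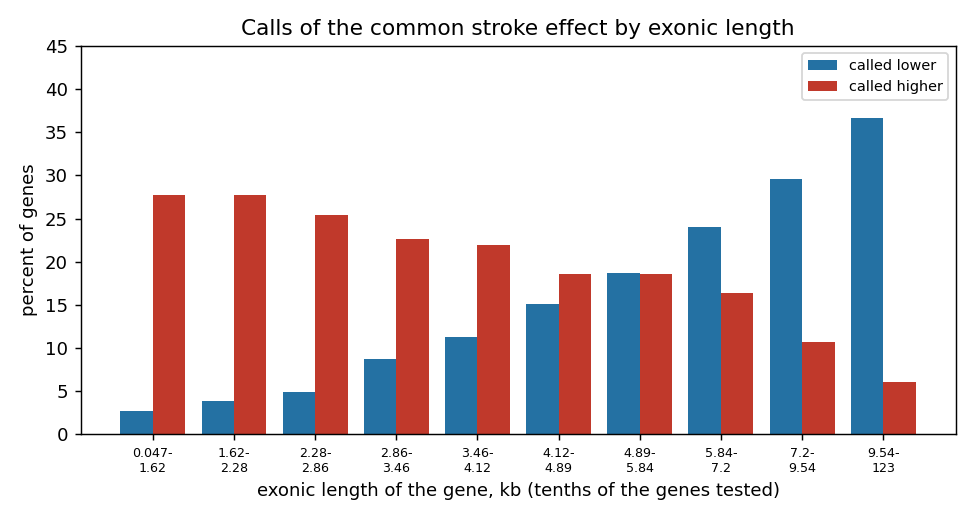
For 10 sets of genes of equal number, ordered by exonic length, bars give the percentage called lower and the percentage called higher. The lower share climbs from 2.7% to 36.6% and the higher share drops from 27.7% to 6.03% between the shortest and the longest set.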

How the data were processed

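Polyadenylated RNA of mouse cortex was sequenced with a stranded protocol at a sequencing center. The authors deposited raw counts of reads per gene for each sample. The aligner, the genome build and whether counting used strand are not given in the sources used here. Of 25746 gene IDs, 21656 had a count, 25712 were found in GENCODE M21 (GRCm38), and 17074 passed edgeR's filter by group. The fit used edgeR 4.0.16 in R 4.3.3 (TMM, quasi-likelihood, strain as covariate, Benjamini-Hochberg over all genes tested), and 6 group means for effects within a strain, strain differences and equivalence. It was tested on simulated data. CPM values were computed from the counts with TMM library sizes. Named genes had a mean of at least 1 CPM and were the largest or most significant changes, those equal or most different in the strains, up to 4 called members of each of 22 gene lists, and the proteins and alleles of the study. Members, lists and tests were chosen with earlier results of these data known. Alternatives were RLE scaling, limma 3.58.1 (voom), DESeq2 1.42.0, other filters, scaling to pan-neuronal genes, a replicate block, added covariates, the added TF cohort and leaving out samples. The samples of mice given tacrolimus were not used, and the WT Stroke samples of the TF cohort entered that alternative only, since that cohort has no non-stroked samples. Depth was similar between samples, and genes of few counts had wider errors. Some genes of the lists are not reported by name here.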

Additional observations from a re-analysis of the deposited data

Results flagged for a closer look

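In 3 of 68 groups of 4 samples examined, 1 sample stood apart from the others by Dixon's criterion, which chance meets in about 1 in 20 groups. WT Ctrl replicate 5 had 52.4 CPM of Sqle, beside 49.5 to 49.7 CPM in the other WT Ctrl samples. WT Ctrl replicate 3 had a sum of thalamus and midbrain markers of 174 CPM, beside 98.7 to 111 CPM. NSG Ctrl replicate 2 had a sum of red blood cell markers of 94.2 CPM, beside 14.4 to 25.2 CPM in the other NSG Ctrl samples.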

How the results depend on the processing

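The counts of 2654 lower and 3340 higher genes came to 2830 and 3228 with RLE scaling, 2765 and 3285 with limma voom, 3099 and 3355 with DESeq2, 2816 and 3640 with the TF cohort added, and 2254 to 2830 and 3082 to 3424 when each sample was left out in turn. Scaled to pan-neuronal genes, 280 were lower and 8607 higher, 10 were lower by over 1 on the log2 scale, 194 were lower and equal and 6160 higher and equal. Gphn and Ndufs1 then turned to 0.0284 and 0.0808 on the log2 scale, and 16 more of the 117 calls of named genes were lost. Genes lower by over 1 numbered 46 with no filter, 9 (with 550 higher) at a mean of at least 1 CPM, and 22 to 44 when each sample was left out. At a margin of 0.5, 410 genes were lower and equal and 197 higher and equal. Without the 7 samples rich in choroid plexus markers, 1995 genes were higher, 48 lower by over 1, 1413 lower and equal, and 549 higher and equal. Strain differences numbered 0 to 13 when each sample was left out, and 1 with the trend over length removed. Genes lower by over 1 with the replicate block are given below. Apart from these and the counts without the choroid-rich samples, the other counts recomputed over all genes changed by at most 1.5 times. Limma voom gave 39 lower by over 1. The counts within single strains and of samples that do not overlap were not recomputed, while counts within gene lists moved further in places. Without the choroid-rich samples, the median log2 fold change of oligodendrocyte precursor genes went from 0.108 to 0.0876. That of endothelial genes went from -0.141 to -0.226 and that of oxidative phosphorylation genes from 0.0734 to 0.00094. The cause of these shifts was not tested. Lowly counted genes carry the widest errors.

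Same-numbered Ctrl and Stroke samples had correlations of residuals from -0.22 to 0.18 over 7 pairs. Pairs of unlike number were not compared, so whether replicate numbers pair the samples was not settled. With the replicate block, 2497 genes were lower, 3147 higher and 52 lower by over 1.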
